A study of Mus musculus with 6 samples.

Results

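Interferon signaling and response were followed through 9 of the 18169 genes of the deposited expression table, in Shh-treated and vehicle-treated Hepa 1-6 cells. The members were taken by gene symbol from the families of receptors, Stat and Irf factors and targets. They were the receptor genes *Ifnar1* and *Ifnar2*, the signal transducer gene *Stat2*, the interferon regulatory factor genes *Irf1*, *Irf3*, *Irf7* and *Irf9*, and the target genes *Isg15* and *Ifit1*. All 9 had a row in the table, and 8 of them were abundant enough to be tested, with *Ifit1* left out by the filter on low counts.

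Hepa 1-6 is an established cell line from a mouse hepatoma, and Shh (sonic hedgehog) is a secreted ligand that acts through Patched and Smoothened on the Gli transcription factors. Each group had 3 libraries, and the labels do not say that these came from separate cultures, so every p-value given here rests on differences between libraries that may be technical. The labels give no treatment beyond Shh or vehicle, and how much Shh was used and for how long is not stated for the sequenced cells. The text on the design mentions exosomes and livers, whereas the labels of all 6 libraries name the cell line, and the labels were followed.

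Type I interferons bind a receptor of the Ifnar1 and Ifnar2 chains, which activates the kinases Jak1 and Tyk2 and then Stat2. Phosphorylated Stat2 joins Irf9 in the ISGF3 complex, which binds the interferon-stimulated response element (ISRE) of target genes such as *Isg15* and *Ifit1*, while the gamma-activated site (GAS) is an element of genes that respond to interferon gamma. Irf3 and Irf7 act before the receptor, switching on the interferon genes when foreign nucleic acid is sensed. Hepatocytes respond to interferon in this way during viral infection of the liver.

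The promoters of the members were read because the ISRE and the GAS are the elements through which the pathway acts on its targets. Each of the 9 members matched at least 1 entry of the RefSeq promoters of build GRCm38.p6, which run from 250 bases before to 50 bases after a gene's start, and there were 11 entries in all. The ISRE was searched as GAAA, any pair of bases and GAAA again, on both strands, and the GAS as TTCNNNGAA, which reads the same on both strands. The windows below are given 5′ to 3′ on the gene's strand, with the matched letters in capitals. *Isg15* and *Ifit1* are shown as the targets, *Stat2* and *Irf1* as signaling genes that hold a match, and *Irf3* as the member with the largest difference relative to its error.
Isg15, minus strand, chr4:156200809-156200928: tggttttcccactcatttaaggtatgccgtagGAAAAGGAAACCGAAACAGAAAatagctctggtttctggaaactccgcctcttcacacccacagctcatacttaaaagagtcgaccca
Ifit1, plus strand, chr19:34640779-34640898: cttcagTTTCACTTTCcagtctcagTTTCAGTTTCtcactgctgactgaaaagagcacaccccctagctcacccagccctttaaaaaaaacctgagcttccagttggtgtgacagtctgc
Stat2, plus strand, chr10:128270256-128270305: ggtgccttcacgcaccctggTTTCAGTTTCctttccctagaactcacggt
Irf1, plus strand, chr11:53769904-53770023: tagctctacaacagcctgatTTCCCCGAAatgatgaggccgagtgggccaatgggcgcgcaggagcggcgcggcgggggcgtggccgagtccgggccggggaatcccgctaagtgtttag
Irf3, plus strand, chr7:44997538-44997657: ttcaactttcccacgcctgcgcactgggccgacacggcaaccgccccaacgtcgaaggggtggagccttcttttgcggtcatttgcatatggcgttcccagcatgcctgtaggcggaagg

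*Isg15* held 3 ISRE matches that overlap one another, the first beginning 78 bases before the start. *Ifit1* held 2, beginning 104 and 85 bases before the start, and *Stat2* held 1, beginning 222 bases before it. ISRE letters thus occurred in 3 of the 9 members, against 3.99% of the 27025 genes with a promoter in the table. GAS letters occurred in *Irf1*, 90 bases before the start of the first of its 2 entries, in *Ifnar2*, 214 bases before the start, and in *Ifnar1*, where the match spans the start. These were 3 further members, against 9.55% of all genes with a promoter. *Irf3*, *Irf7* and *Irf9* held neither set of letters in these windows. A match is a description of letters and not of a bound site, and the absence of a match says only that the letters are not in the window.

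The cells and libraries were checked before the members were compared. Depth was even, at 20253781 to 20335463 counts per library. The hedgehog targets *Gli1* and *Ptch1* had log2 fold changes of 0.036 and 0.03 and neither reached an unadjusted p under 0.05. Of 10 hepatocyte markers, 5 were at 10 FPKM or more, among them *Alb* at 494.2 FPKM, 3 were at 1 to 10 FPKM, and *Ttr* and *Serpina1a*, named after their values had been seen, were below 1 FPKM. Among the 8 tested, 6 had log2 fold changes below 0, and *Trf*, the transferrin gene, was the 1 at an unadjusted p under 0.05 (log2 fold change -0.11, unadjusted p = 0.0171, adjusted p = 0.469 from edgeR). Of all genes tested, 10.4% were at an unadjusted p under 0.05, and 5.56% were so with Shh lower. Shh replicate 1 had the highest summed levels of markers of other cell types. Its 7 stellate cell markers summed to 63.9 CPM, against 20.1 and 19.5 CPM in Shh replicates 2 and 3 and 23.6, 41.0 and 33.6 CPM in vehicle replicates 1 to 3, with the retinoid-storage gene *Lrat* at or near 0 in every library. Its 9 macrophage and dendritic cell markers summed to 57.0 CPM, against 46.3 and 48.5 CPM in the other Shh libraries and 53.4 to 54.0 CPM with vehicle, with *Adgre1* at 1 to 9 counts per library. These markers did not move together. *Cd14*, the most abundant, was at 30.4 CPM there and at 33.2 to 34.8 CPM with vehicle. *Lyz2* was at 5.00 CPM there and at 1.75 to 2.84 CPM with vehicle. Both were named after their values had been seen. Endothelial markers summed to 3.32 CPM there and to 1.42 to 2.69 CPM elsewhere. The part of these markers in the results below was not tested. Values without Shh replicate 1 are given below for several genes. In bulk RNA, fewer cells of a type and less RNA per cell cannot be told apart.

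Levels between genes were compared per length, in FPKM, a read count scaled by transcript length and library total, as deposited. *Ifnar2* (33.9 ± 1.26 FPKM, SD, n = 6) and *Irf3* (31.2 ± 1.68) were the most abundant members, and their ranges over the 6 libraries overlapped. *Irf1* followed at 20.7 ± 0.807, then *Ifnar1* at 6.79 ± 0.428, and neither overlapped its neighbours in this order. *Stat2* (3.04 ± 0.199) and *Irf9* (2.86 ± 0.206), which are subunits of ISGF3, overlapped each other. The target *Isg15* (1.61 ± 0.385) and the inducible factor *Irf7* (1.29 ± 0.256) overlapped as well. *Ifit1* was lowest, at 0.0767 ± 0.0378 FPKM, below *Irf7* by 16.8-fold. Of all genes in the table, 60.3% lay below *Ifnar1* and 85.05% below *Ifnar2*, while 45.4% of genes lay below *Isg15* and 25.7% below *Ifit1*.

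The place of the receptor chains in this order depended on the length used. The length behind the deposited values was 6966 bases for *Ifnar1* and 1235 for *Ifnar2*, whereas their longest GENCODE M21 transcripts have 3909 and 3047 bases. With the longest transcript, an alternative chosen after the data had been seen, *Irf3* came first at 25.3 CPM (counts scaled to a common library total) per kilobase, followed by *Irf1* at 20.3, *Ifnar2* at 13.7 and *Ifnar1* at 12.1. The order of the 5 lower members was the same under both lengths.

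**Figure D1:**
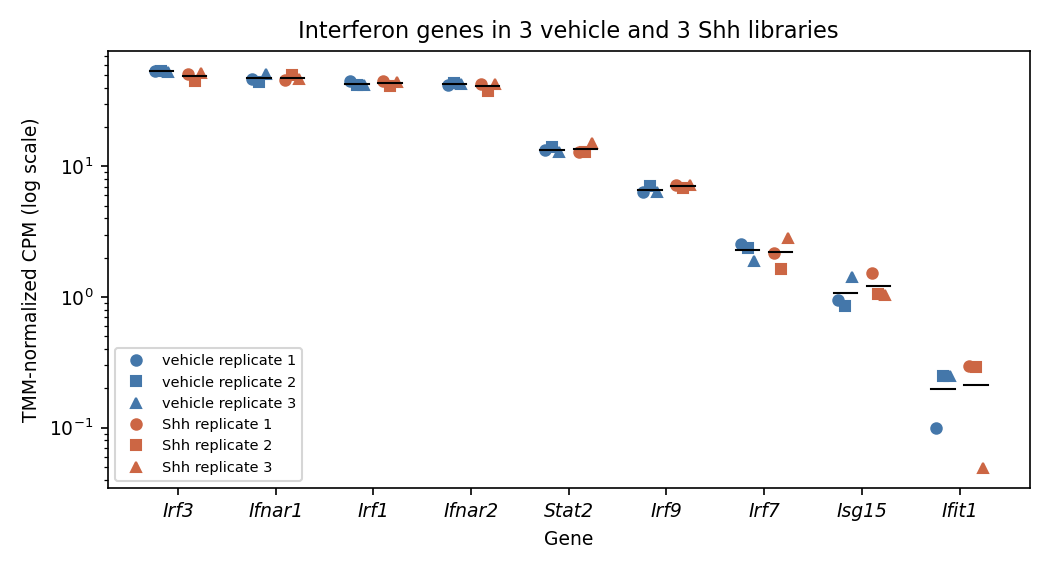
TMM-normalized CPM (log scale) of the 9 members, each point a library (blue vehicle, orange Shh; marker shape gives the replicate number) and each bar a group mean. The groups overlap for every member apart from Irf3, where the Shh libraries lie at 45.0 to 51.7 CPM and the vehicle libraries at 53.0 to 54.1 CPM.

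The comparison asks whether Shh altered the transcripts of the interferon pathway in these cells. Differences within a gene were measured in CPM normalized by TMM, and tested by edgeR's quasi-likelihood test across 12286 genes with Benjamini-Hochberg adjustment. At an adjusted p under 0.05 edgeR called 0 of the 8 tested members, as it called 0 of all genes (0%). At an unadjusted p under 0.05 it called 1 member, *Irf3*, beside 10.4% of all genes tested, and 1 of 8 is near that background. In DESeq2, 0 members reached an unadjusted p under 0.05, against 6.63% of all genes. With its default filtering DESeq2 called 6 genes (0.0488%) after adjustment and gave the members no adjusted p, and without that filtering it called 0. Log2 fold changes were above 0 for 5 members and below 0 for 3, with a median of 0.012, against a median of 0.0028 over all genes tested. A p that misses the threshold does not show that the groups were alike, so the 95% interval of each difference is given below.

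The receptor chains were measured with 782 to 1039 counts per library. *Ifnar1*, the low-affinity chain that recruits Tyk2, had 46.5, 44.2 and 50.7 CPM in vehicle replicates 1 to 3 and 45.5, 50.1 and 46.8 CPM in Shh replicates 1 to 3. The Shh libraries lay inside the vehicle range. Its log2 fold change was 0.01 (standard error 0.0598, 95% interval -0.12 to 0.14, adjusted p = 0.963 from edgeR). *Ifnar2*, the high-affinity chain that docks Jak1 and the Stat proteins, had 42.1, 43.2 and 42.7 CPM with vehicle and 42.6, 37.7 and 42.9 CPM with Shh. Shh replicate 2 stood below the other 5 libraries, which lay between 42.1 and 43.2 CPM. The log2 fold change was -0.056 (standard error 0.057, 95% interval -0.18 to 0.068, adjusted p = 0.734 from edgeR), and without Shh replicate 2 it was 0.002. Of the exonic bases of *Ifnar2*, 9.92% are shared with the gene model *Gm21970* on the same strand, so its counts could include reads of that model.

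*Stat2*, the transducer specific to type I and type III interferons, had 13.4, 14.0 and 12.8 CPM with vehicle and 12.8, 12.9 and 15.0 CPM with Shh. Shh replicate 3 was the highest library and the other Shh libraries were among the lowest. Its log2 fold change was 0.015 (standard error 0.0816, 95% interval -0.16 to 0.19, adjusted p = 0.96 from edgeR). *Irf9*, the DNA-binding subunit of ISGF3, had 6.39, 7.02 and 6.38 CPM with vehicle and 7.23, 6.79 and 7.21 CPM with Shh. Vehicle replicate 2 lay above Shh replicate 2, and the other vehicle libraries lay below all Shh libraries. The log2 fold change of 0.10 (standard error 0.0991, 95% interval -0.11 to 0.32) had an adjusted p of 0.726 from edgeR, and it stayed above 0 in all 14 alternatives, from 0.078 to 0.15. These alternatives reuse the same libraries, so they are not independent of one another. *Irf3* likewise kept its sign in all 14, from -0.16 to -0.064. *Irf9* shares 3.97% of its exonic bases with its neighbour *Rnf31* on the same strand.

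*Irf1*, an early target of interferon gamma that itself binds ISRE-like sequences, had 45.0, 41.8 and 42.1 CPM with vehicle and 45.4, 41.1 and 44.5 CPM with Shh. The Shh libraries held both the highest and the lowest value. Its log2 fold change was 0.023 (standard error 0.0545, 95% interval -0.096 to 0.14, adjusted p = 0.9 from edgeR), the narrowest error of the tested members. *Irf1* shares 3% of its exonic bases with *Gm17334* on the opposite strand, and as the library kit is not stated to mark strand, reads of this stretch cannot be told apart.

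*Irf3*, the constitutive factor that is phosphorylated after sensing of nucleic acid, had 54.1, 54.0 and 53.0 CPM with vehicle and 51.1, 45.0 and 51.7 CPM with Shh. All Shh libraries lay below all vehicle libraries, as in 8.67% of the genes tested. The vehicle libraries were close together (53.7 ± 0.622 CPM, SD, n = 3), and Shh replicate 2 lay furthest below them. The log2 fold change was -0.12 (standard error 0.0566, 95% interval -0.25 to -0.0018), with an unadjusted p of 0.0472 and an adjusted p of 0.477 from edgeR. The exact two-sided permutation test gave p = 0.1, the smallest that 3 libraries against 3 allow. DESeq2 gave an unadjusted p of 0.0859. The log2 fold change was -0.064 without Shh replicate 2 (unadjusted p = 0.177 from edgeR) and -0.15 without Shh replicate 1 (unadjusted p = 0.0251 from edgeR). Over the alternatives its adjusted p ran from 0.169 to 0.852 in edgeR and DESeq2.

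*Irf7*, the interferon-induced factor that amplifies the response, was measured with 34 to 58 counts per library. It had 2.55, 2.39 and 1.88 CPM with vehicle and 2.18, 1.64 and 2.85 CPM with Shh. The lowest and the highest library were both Shh libraries. The log2 fold change was -0.034 (standard error 0.229, 95% interval -0.53 to 0.46, adjusted p = 0.968 from edgeR), so a change of up to 1.38-fold upward or to 0.692 of the vehicle level was not distinguished from none.

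*Isg15*, a ubiquitin-like modifier that is among the most strongly induced interferon targets, had 0.948, 0.847 and 1.43 CPM with vehicle and 1.53, 1.06 and 1.03 CPM with Shh. Vehicle replicate 3 and Shh replicate 1 stood above the other 4 libraries. The counts behind these values were 17 to 31 per library after rounding, and the count of 31 in Shh replicate 1 has an exact 95% Poisson interval of 21.1 to 44.0, which covers counting error only. The log2 fold change was 0.16 (standard error 0.294, 95% interval -0.48 to 0.80, adjusted p = 0.863 from edgeR), and without Shh replicate 1 it was -0.043.

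*Ifit1*, which binds foreign RNA that lacks a cap modification, was counted 2, 5 and 5 times with vehicle and 6, 6 and 1 times with Shh after rounding. Each group held a low library, and the groups overlapped. The summed counts were 12 and 13, a ratio of Shh to vehicle of 1.07 (exact 95% interval 0.448 to 2.55, counting error only). No difference was detectable at this depth.

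**Figure D2:**
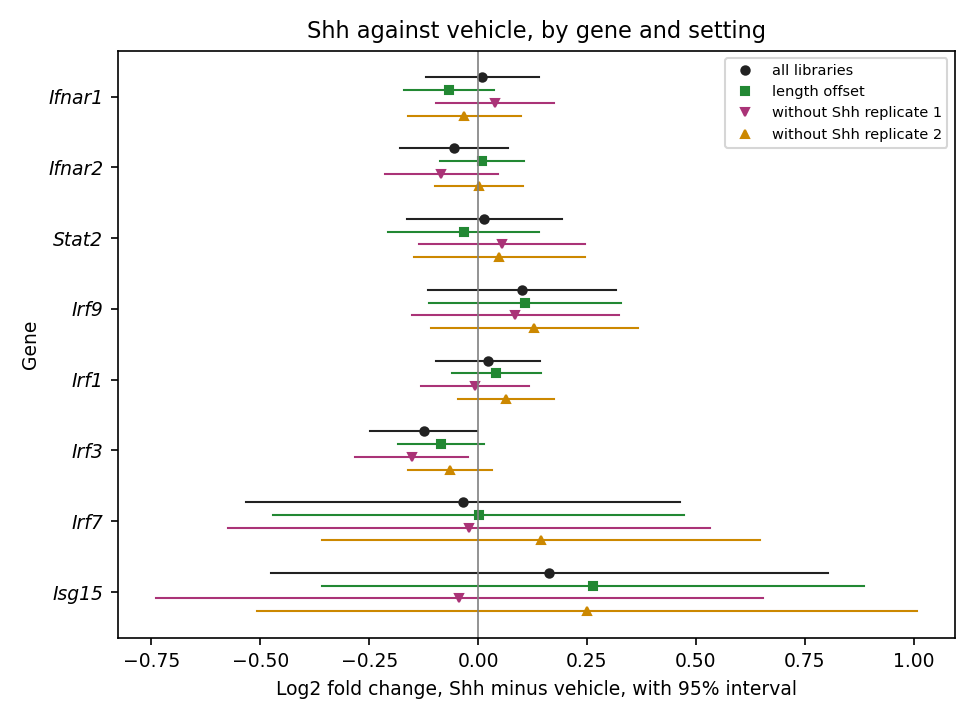
Log2 fold change of Shh against vehicle, with its 95% interval, for the 8 tested members under 4 settings (all libraries, transcript length offset, without Shh replicate 1, without Shh replicate 2). Intervals cross 0 for every member and setting shown apart from Irf3 with all libraries and without Shh replicate 1, and they are widest for Irf7 and Isg15.

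The spread of each member over all 6 libraries of both groups was set beside the spread that counting alone gives, as a description. The coefficient of variation was 5.63% for *Irf9*, under the 8.5% of counting, and above counting for the other 8 members. It was 50.9% for *Ifit1* against 49.4%, 24.2% for *Isg15* against 20.8%, and 19.7% for *Irf7* against 14.8%. For the more abundant members it was 6.59% for *Irf3* against 3.1%, 5.45% for *Ifnar1* against 3.23%, 4.99% for *Ifnar2* against 3.43%, 4.27% for *Irf1* against 3.37%, and 6.43% for *Stat2* against 6.05%.

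Over the 6 libraries *Irf3* and *Ifnar2* had the highest Pearson r of log2 CPM of all pairs of tested members, 0.922, a description of 6 points that share the low value of Shh replicate 2. The genes most like *Irf3* by that measure, among all genes tested with a proper name, were *Rpl27a* (a ribosomal protein gene, r = 0.997), *Gins1* (a subunit of the replicative helicase complex, r = 0.996) and *Prdx2* (a peroxiredoxin gene, r = 0.996). Their log2 fold changes were -0.19, -0.14 and -0.13.

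The fold changes of all genes moved with transcript length. Over 11158 genes with a length, which share the same 6 libraries, Spearman's rho between length and log2 fold change was 0.555. Among genes within 1.2-fold of the length of *Irf3*, the median log2 fold change was -0.045, and with an offset for length that of *Irf3* itself was -0.084 (95% interval -0.18 to 0.014, unadjusted p = 0.0885 from edgeR). Genes as long as *Ifnar1* had a median of 0.075 and those as short as *Ifnar2* a median of -0.073, and the receptor chains had the signs of those medians, as did *Stat2*, *Irf3* and *Irf7*. *Irf1*, *Irf9* and *Isg15* had the opposite sign, at 0.023, 0.10 and 0.16 against medians of -0.024, -0.0090 and -0.119. With the offset *Ifnar1* was at -0.067 and *Ifnar2* at 0.0088. The medians and the offset used the lengths behind the deposited values, which for the receptor chains differ from the longest transcripts. Genes near 3003 bases, close to the longest *Ifnar2* transcript, had a median of 0.013, opposite in sign to *Ifnar2* without the offset. The median of genes as short as *Isg15* lay inside the interval of *Isg15*.

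**Figure D3:**
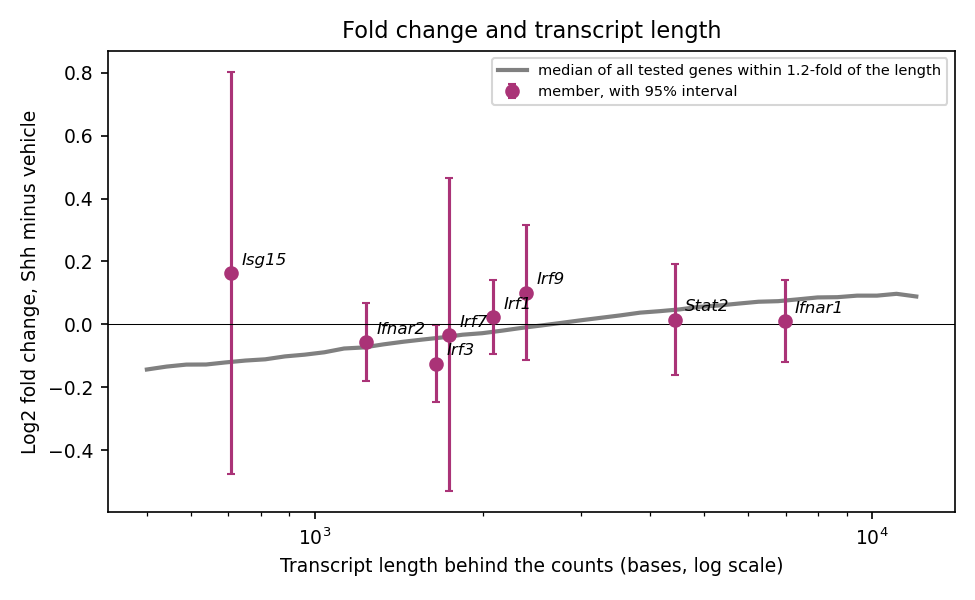
Log2 fold change of Shh against vehicle over the transcript length behind the counts (bases, log scale), with the 8 tested members as points with 95% intervals and the median of all tested genes within 1.2-fold of each length as a line. The line runs from below 0 for short transcripts to above 0 for long ones, and the member intervals include it.

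The other genes of the pathway were taken from lists. Of 21 interferon genes in the list of ligands, 8 had a row and 0 were abundant enough to test, with summed levels of 0.399 to 0.791 CPM with vehicle and 0.434 to 0.54 CPM with Shh. Of the receptors and kinases outside the members, 9 of 9 were tested, 3 had a fold change above 0 and 6 below, and 0 reached an unadjusted p under 0.05. *Jak1*, the kinase that docks on Ifnar2, had a log2 fold change of 0.093 (adjusted p = 0.501 from edgeR), which was 0.04 with the length offset, with 66.9, 67.8 and 67.6 CPM with vehicle and 70.8, 75.7 and 69.1 CPM with Shh. Its groups did not overlap, as in 6.79% of the genes tested in that direction. Of the other Irf genes and Irf2 cofactors, 7 of 8 were tested and 0 reached that p, with log2 fold changes of -0.042 to 0.057.

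Genes of nucleic acid sensing, which lie before Irf3 and Irf7, had a median log2 fold change of 0.026 over 15 tested. At an unadjusted p under 0.05 there was 1 of 15, beside 10.4% of all genes tested. This gene was *Traf3*, an adaptor between the sensors and the Irf3 kinases. *Traf3* had 37.9, 39.6 and 40.9 CPM with vehicle and 41.8, 46.5 and 43.0 CPM with Shh. All Shh libraries lay above all vehicle libraries, as in 6.79% of the genes tested. Its log2 fold change was 0.15 (unadjusted p = 0.0188, adjusted p = 0.469 from edgeR), and 0.07 with the length offset (unadjusted p = 0.147 from edgeR). Without Shh replicate 1 it was 0.18 (unadjusted p = 0.00706, adjusted p = 0.0963 from edgeR). In that setting 21.1% of all genes tested were at an unadjusted p under 0.05. *Sting1*, the adaptor of cytosolic DNA sensing, had 102.4, 103 and 100.5 CPM with vehicle and 95.8, 97.0 and 96.0 CPM with Shh. Its log2 fold change was -0.083 (adjusted p = 0.487 from edgeR). The groups did not overlap, with Shh lower, as in 8.67% of the genes tested. Of 12 feedback inhibitors, 4 were above 0 and 8 below, and 0 reached an unadjusted p under 0.05. *Usp18*, which removes Isg15 from proteins and blocks Ifnar2, had 44.3, 45.0 and 44.7 CPM with vehicle and 42.7, 38.8 and 42.8 CPM with Shh. All its Shh libraries lay below all vehicle libraries, as in 8.67% of the genes tested. Its log2 fold change was -0.11 (unadjusted p = 0.0591, adjusted p = 0.487 from edgeR), or -0.071 with the length offset. Without Shh replicate 1 it was -0.13 (unadjusted p = 0.0382, adjusted p = 0.206 from edgeR).

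Of 59 interferon-stimulated genes outside the members, 54 had a row and 45 were tested. Of the 54, 19 were below 1 FPKM, 23 were at 1 to 10 FPKM and 12 at 10 FPKM or more. Log2 fold changes were above 0 for 20 and below 0 for 25, with a median of -0.025. At an unadjusted p under 0.05 there were 5 of 45, 1 with Shh higher and 4 with Shh lower, beside 4.83% and 5.56% of all genes tested, and 0 passed after adjustment in edgeR. *Nmi*, an interferon-induced binding partner of Stat proteins, had 9.28, 9.27 and 8.80 CPM with vehicle and 7.28, 7.61 and 7.75 CPM with Shh. All Shh libraries lay below all vehicle libraries, as in 8.67% of the genes tested. The log2 fold change was -0.27 (unadjusted p = 0.00842, adjusted p = 0.469 from edgeR, unadjusted p = 0.0619 from DESeq2). With the length offset it was -0.21 (unadjusted p = 0.0445, adjusted p = 0.791 from edgeR). *Ifi35*, the partner protein of Nmi, had a log2 fold change of -0.14 (unadjusted p = 0.0444, adjusted p = 0.477 from edgeR), with 26.4, 30.4 and 28.3 CPM with vehicle and 25.7, 25.3 and 26.2 CPM with Shh. With the length offset it was -0.08 (unadjusted p = 0.209 from edgeR), and without vehicle replicate 2 it was -0.089 (unadjusted p = 0.218 from edgeR).

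*Ifitm2* and *Ifitm3*, membrane proteins that restrict virus entry, were the most abundant of the interferon-stimulated genes at 585.5 and 562.7 FPKM. *Ifitm3* had 360, 349.8 and 361.6 CPM with vehicle and 349.6, 292.9 and 311.5 CPM with Shh. Shh replicates 2 and 3 were lowest and Shh replicate 1 was just under the vehicle libraries. For *Ifitm2* the groups overlapped, with Shh replicate 1 at 351.1 CPM and vehicle replicate 3 at 349.2 CPM. The log2 fold changes of *Ifitm2* and *Ifitm3* were -0.17 and -0.17 (adjusted p = 0.469 for both from edgeR). DESeq2 gave unadjusted p of 0.00275 and 0.00341, and adjusted p of 0.0583 and 0.0698 with its default filtering. Without that filtering the adjusted p from DESeq2 were 0.512 and 0.531. Without Shh replicate 1 the log2 fold changes were -0.25 and -0.24 (adjusted p = 0.0354 for both from edgeR), in a comparison that called 195 genes in all. *Acta2*, named after its values had been seen, was the only stellate cell marker among them, at -0.85 (adjusted p = 0.0462 from edgeR). The left-out library is the one with the highest stellate and macrophage marker sums. Whether these markers bear on the values of *Ifitm2* and *Ifitm3* was not tested. With the length offset the log2 fold changes of *Ifitm2* and *Ifitm3* were -0.059 and -0.055 (adjusted p = 0.803 and 0.807 from edgeR). Leaving out any other library gave adjusted p of 0.533 to 0.847. These neighbouring genes are related paralogs and their estimated counts were not whole numbers, so the split of reads between them is uncertain. *Oas3*, a synthetase of the RNase L activator, was named after its values had been seen because it was the 1 gene with Shh higher. It had 0.299, 0.548 and 0.445 CPM with vehicle and 0.99, 0.626 and 0.687 CPM with Shh, from 6 to 20 rounded counts per library, and a log2 fold change of 0.82 (unadjusted p = 0.0446, adjusted p = 0.477 from edgeR, unadjusted p = 0.129 from DESeq2). Without Shh replicate 1, its highest library, the log2 fold change of *Oas3* was 0.60 (unadjusted p = 0.176 from edgeR).

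**Figure D4:**
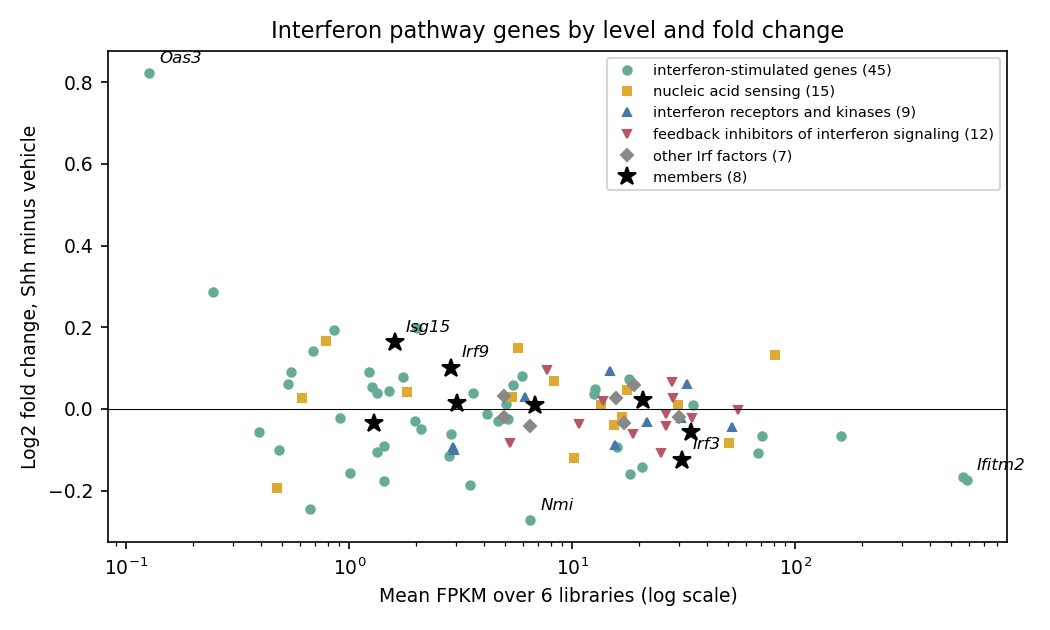
Log2 fold change of Shh against vehicle over the mean FPKM of the 6 libraries (log scale) for the tested members (stars) and the tested genes of 5 pathway lists. Most genes lie between -0.2 and 0.2, Oas3 at low abundance lies at 0.82, and Nmi is lowest at -0.27.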

How the data were processed

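Poly(A) RNA of Hepa 1-6 cells was sequenced by the authors in 3 Shh and 3 vehicle libraries. Per gene, the authors deposited FPKM and estimated counts, and 36.4% of the counts above 0 held a decimal part. The submitters' notes name Bowtie2 without a version. The counter, build and annotation were not given in the sources used here. Columns named control were taken as the vehicle libraries, and 6 further per-sample columns in another unit were not used. The members and gene lists were chosen with earlier results of these data known.

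Rounded counts were tested in R 4.3.3 with edgeR 4.0.16, using TMM factors, its expression filter (count 10, total 15) and a quasi-likelihood test with group alone, at a threshold of 0.05. The test was checked on simulated data. FPKM served for levels between genes and for the length behind the counts (mean FPKM of at least 0.5). Named genes were the members, up to 4 genes per pathway list with the smallest p, at most 3 per marker or hedgehog list, and the 3 genes most like the member with the smallest p. Exceptions are marked where they occur. DESeq2 1.42.0 and upper-quartile factors were tried in place of the main method. Other alternatives removed the filter or raised it to 5 CPM in 3 libraries, added a replicate block, an offset for transcript length (smooth trend, 5 degrees of freedom, prior count 2) or both, or left out each library. Promoters and exons were read with Python 3.11.15.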

Additional observations from a re-analysis of the deposited data

How the results depend on the processing

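Of 110 member fold changes under the alternatives, 92 kept their direction, 18 turned it, and 0 passed an adjusted p under 0.05 in edgeR or DESeq2 (lowest 0.169). With the length offset the log2 fold changes of *Ifnar1*, *Ifnar2*, *Stat2* and *Irf7* turned to -0.0674, 0.0088, -0.0331 and 0.0011, and with replicate block and offset those of the first 3 to -0.0661, 0.0085 and -0.0341. When a library was left out, the log2 fold changes ran from -0.0347 to 0.0675 for *Ifnar1*, -0.0893 to 0.002 for *Ifnar2*, -0.063 to 0.055 for *Stat2*, -0.0067 to 0.0646 for *Irf1*, -0.2529 to 0.1449 for *Irf7* and -0.0432 to 0.4265 for *Isg15*, and each turned its sign without at least 1 library. The cause was not tested.

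The members at an unadjusted p under 0.05 numbered 0 rather than 1 with DESeq2 (with or without its independent filtering, 6.63% of all genes at that p), at least 5 CPM (12.5%), the length offset (6.13%), and block and offset (7.6%). They numbered 0 to 1 when a library was left out, with 0 without vehicle replicate 1 or 2 (4.89% each), vehicle replicate 3 (8.33%) or Shh replicate 2 (6.2%). Without Shh replicate 1 (21.1%) or Shh replicate 3 (9.33%) the count was 1. The interferon-stimulated genes at that p numbered 2 rather than 5 of 45 tested with DESeq2 (either way), and 3 to 9 of 45 when a library was left out. In other settings fewer genes were tested. There were 3 of 30 (10%) with at least 5 CPM, 1 of 41 with the offset and 0 of 41 with block and offset. The 9, or 20% of 45, came without Shh replicate 1, where 21.1% of all genes were at that p, and the 3 without vehicle replicate 1 or 3. Over all genes the 0 adjusted calls became 1 with no filter, 1 with the offset, 7 with block and offset, 1277 at the unadjusted p, and 0 to 195 when a library was left out, the 195 without Shh replicate 1. DESeq2 with its default independent filtering called 6 genes, but 615 of 12286 genes then had an adjusted p and 0 of the members did. DESeq2 without that filtering, chosen after this result had been seen, called 0.

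Same-numbered libraries did not deviate together (correlations -0.04, -0.054 and 0.098), so no pairing by number was seen. These correlations cannot show whether same-numbered libraries were prepared together, which the labels do not say. The replicate block called 0 genes and 0 members after adjustment. At an unadjusted p under 0.05 it called 1 of 8 members, beside 11.1% of all genes tested. Depth limits *Irf7*, *Isg15* and *Ifit1*.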

Other observations

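Promoters of the interferon-stimulated genes were searched for the same ISRE letters, on both strands. Of 45 genes of that list with a RefSeq promoter, 23 (51.1%) held the letters, against 3.99% of the 27025 genes with a promoter. Genes with the letters had a median of 1.43 FPKM and genes without them a median of 2.73 FPKM. The median log2 fold change of Shh against vehicle was -0.057 over 19 tested genes with the letters and -0.028 over 18 tested genes without them. In each set the values lay on both sides of 0, with 9 above and 10 below in the first and 7 above and 11 below in the second.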
